A study of Mus musculus with 16 samples.

Results

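The genes described here are 10 transcripts by which excitatory and inhibitory neurons and their subtypes are told apart, measured in bulk RNA from transplanted mouse glioblastomas. They were found by symbol among the 26466 genes of the table of all libraries, and all 10 were present: Slc17a7, Slc17a6, Gad1, Gad2, Slc32a1, Cck, Sst, Npy, Pvalb and Vip. The 16 libraries came from 16 tumours in 4 groups, 4 Type 2 TAM depleted, 4 Type 2 Control, 3 Type 1 TAM depleted and 5 Type 1 Control. TAMs are tumour-associated macrophages, and all 16 tumours carry the model label Transplanted. The sources used here do not give the means of depletion, the cell of origin of either tumour kind, or the strain, sex and age of the hosts. The labels link no tumour to a named animal, and the p-values below therefore reflect only how much these samples scatter.

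Neurons load their transmitter into vesicles through dedicated carriers, and these carriers and the enzymes that make the transmitter define the class of a neuron. Slc17a7 (VGLUT1) fills vesicles with glutamate mainly in cortical and hippocampal excitatory neurons, and Slc17a6 (VGLUT2) does so mainly in thalamic, hypothalamic and brainstem neurons. Gad1 and Gad2 encode GAD67 and GAD65, which make GABA from glutamate, and Slc32a1 (VGAT) loads GABA into vesicles. Sst, Npy, Vip and Cck encode the peptides somatostatin, neuropeptide Y, vasoactive intestinal peptide and cholecystokinin. Pvalb encodes parvalbumin, a calcium buffer of fast-spiking interneurons. Sst, Pvalb and Vip mark largely separate classes of cortical interneuron, Npy is shared by several of them, and Cck is made by excitatory neurons as well as by a class of interneuron. In a glioblastoma such transcripts are usually read as a sign of brain tissue within the sample.

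The promoter windows below show the start of an excitatory gene, a GABA gene and a pair of peptide genes, whose known control elements differ. They run from 250 bases before to 50 bases after the RefSeq start (GRCm38.p6), 5′ to 3′ on the gene's strand. All 10 genes had a window, and Slc17a6 and Pvalb had an additional one, making 12 windows in all. Capitals mark the GC box GGGCGG on either strand in Slc17a7 (chr7:45163671-45163970, plus strand). In Gad2 (chr2:22622077-22622376, plus strand) they mark AGCACC followed after any 2 bases by GGACAGC, a core of the element bound by the neuronal repressor REST. In Sst (chr16:23890795-23891094, minus strand) they mark TGACGTCA, the cAMP response element bound by CREB, and in Vip (chr10:5638968-5639267, plus strand) its first 7 letters, TGACGTC.
Slc17a7: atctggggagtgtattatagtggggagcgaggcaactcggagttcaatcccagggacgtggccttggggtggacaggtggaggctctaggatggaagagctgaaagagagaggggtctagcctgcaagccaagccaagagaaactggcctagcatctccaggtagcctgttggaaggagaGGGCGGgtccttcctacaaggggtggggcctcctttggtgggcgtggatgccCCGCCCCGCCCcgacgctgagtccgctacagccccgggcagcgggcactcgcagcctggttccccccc
Gad2: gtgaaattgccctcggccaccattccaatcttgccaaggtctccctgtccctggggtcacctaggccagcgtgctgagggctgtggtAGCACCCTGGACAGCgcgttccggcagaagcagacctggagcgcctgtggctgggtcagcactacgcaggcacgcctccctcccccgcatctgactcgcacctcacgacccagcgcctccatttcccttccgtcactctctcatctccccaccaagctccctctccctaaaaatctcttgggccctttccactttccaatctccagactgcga
Sst: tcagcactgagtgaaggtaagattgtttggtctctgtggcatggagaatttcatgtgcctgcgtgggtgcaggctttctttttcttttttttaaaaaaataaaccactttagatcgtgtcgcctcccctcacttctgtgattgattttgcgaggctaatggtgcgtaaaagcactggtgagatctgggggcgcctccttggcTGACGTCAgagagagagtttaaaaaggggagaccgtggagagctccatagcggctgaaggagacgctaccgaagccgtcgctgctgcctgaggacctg
Vip: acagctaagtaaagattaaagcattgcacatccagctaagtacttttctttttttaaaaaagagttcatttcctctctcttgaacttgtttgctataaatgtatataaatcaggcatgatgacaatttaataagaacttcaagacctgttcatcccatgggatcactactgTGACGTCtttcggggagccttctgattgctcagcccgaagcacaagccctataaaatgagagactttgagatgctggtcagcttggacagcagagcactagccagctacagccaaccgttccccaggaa

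Each motif was searched on both strands of all 32851 windows. The REST core lay 163 bases before the start of Gad2 and was found in 10 windows (0.0304%). The full TGACGTCA lay 48 bases before the start of Sst and was found in 588 windows (1.79%). Its shorter form TGACGTC, which overlaps the full element in Sst, lay 79 bases before the start of Vip and was found in 1053 windows (3.21%). GC boxes were present in Slc17a7, Slc17a6, Gad1 and Npy and in 11714 windows (35.7%), and the TATA hexamer TATAAA in Gad1 and Vip and in 4473 windows (13.6%). These are matches of letters and show no binding.

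Depth ranged from 4.21 to 18.3 M recovered reads per library, and all 10 genes passed the filter on low values, which asked for 3 or more libraries with normalized counts of at least 10. The libraries fell into separate sets by their reads in 997 olfactory and vomeronasal receptor genes, the odour and pheromone receptors of nasal sensory neurons. These reads lay between 2717 and 8650 per M reads in 9 high-background libraries and between 97.0 and 811 per M reads in 7 low-background libraries. In Type 2 the high-background set held TAM depleted 3 and 4 and Control 1 and 3. In Type 1 it held all 5 Control libraries and no TAM depleted library, so background and depletion cannot be told apart there. Reads in 4 Y-linked genes were between 0 and 30 in Type 2 TAM depleted libraries and between 37 and 880 in Type 2 Control libraries, so a difference in Y-linked reads and depletion cannot be told apart in Type 2. In Type 1 TAM depleted 1, 2 and 3 the same genes had 2, 174 and 1 reads, against 64 to 657 reads in Type 1 Control libraries. Scaled for depth, these were 1.12, 105.3 and 0.573 normalized counts in TAM depleted 1, 2 and 3, against 115.5 to 821 in Control libraries. The scaled groups did not overlap, so a difference in Y-linked reads and depletion cannot be told apart in Type 1 either.

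In Type 2 tumours, all 10 genes had higher mean levels after TAM depletion, and 4 of them rose past the threshold: the glutamate carrier Slc17a7, the peptides Cck and Npy, and the GABA-synthesizing Gad1. By limma-trend, at a threshold of 0.05 on the adjusted p, 956 of all 26463 genes tested (3.61%) passed in either direction and 2.37% as higher. An unadjusted p under 0.05 was found for all 10 of the genes and for 18% of all genes tested. The median log2 fold change was 3.46 over the 10 genes and -0.21 over all genes tested. In bulk tissue, fewer cells of a type and less RNA per cell cannot be told apart, and this holds for every level given here. Log2 fold changes are of the normalized count plus 1, which understates changes of low genes.

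Slc17a7 (chr7:45163949-45176142, GRCm38) had normalized counts of 3392, 10669, 332 and 3304 in Type 2 TAM depleted tumours 1 to 4, against 100.1, 47.9, 137 and 47.6 in Type 2 Control tumours 1 to 4. Every depleted library lay above every control library, and TAM depleted 3 stood well below the other depleted libraries. On the log2 scale Slc17a7 rose by 5.05 (SE 1.03, 95% interval 2.88 to 7.22, limma-trend adjusted p = 0.0186).

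Slc17a6 (chr7:51622006-51671119) had 110, 888, 357 and 102 normalized counts in TAM depleted tumours 1 to 4, against 107, 4.45, 75.7 and 168 in Control tumours 1 to 4. The groups overlapped: TAM depleted 1 and 4 lay within the range of the controls. Its log2 fold change of 2.22 (SE 0.88, 95% interval 0.37 to 4.08) did not pass (limma-trend adjusted p = 0.179). TAM depleted 3, the lowest library for Slc17a7, was the second highest of its group for Slc17a6.

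Among the GABA genes, Gad1 (chr2:70553072-70602014) had 2417, 3861, 872 and 1318 normalized counts in TAM depleted tumours 1 to 4, against 172, 36.7, 96.2 and 1232 in Control tumours 1 to 4. Control 4 stood apart, at the level of the depleted tumours, and the other controls lay below all of them. Gad1 rose by 3.44 on the log2 scale (SE 0.89, 95% interval 1.55 to 5.32, limma-trend adjusted p = 0.0431).

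Gad2 (chr2:22622205-22693874) had 1944, 2560, 474 and 921 normalized counts in TAM depleted tumours 1 to 4, against 129, 14.5, 50.8 and 1328 in Control tumours 1 to 4. Slc32a1 (chr2:158610767-158615748) had 253, 528, 134 and 211 normalized counts after depletion, against 10.7, 1.67, 14.2 and 209 in controls. Both repeated the pattern of Gad1, with Control 4 inside the range of the depleted tumours and the other controls below it. Their log2 fold changes of 3.49 (SE 1.24, limma-trend adjusted p = 0.132) and 3.81 (SE 1.16, limma-trend adjusted p = 0.0791) did not pass. Exons of Slc32a1 overlap the antisense gene Gm14205, and the library kit does not mark strand, so reads of both cannot be told apart there.

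Cck (chr9:121489824-121495694) had 398, 1858, 116 and 547 normalized counts in TAM depleted tumours 1 to 4, against 14.3, 8.35, 14.2 and 20.4 in Control tumours 1 to 4. The groups did not overlap, and unlike the GABA genes Cck was low in Control 4 as well. Its log2 fold change was 4.99 (SE 1.02, 95% interval 2.83 to 7.15, limma-trend adjusted p = 0.0188), close to that of Slc17a7.

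Npy (chr6:49822710-49829507) had 549.5, 551, 42.1 and 361 normalized counts in TAM depleted tumours 1 to 4, against 21.4, 21.7, 68.6 and 42.5 in Control tumours 1 to 4. TAM depleted 3 lay within the range of the controls and the other depleted tumours lay above it. Npy rose by 2.90 on the log2 scale (SE 0.78, 95% interval 1.26 to 4.54, limma-trend adjusted p = 0.0487), just inside the threshold.

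Sst (chr16:23889573-23890958) had 284, 1040.4, 80.9 and 288 normalized counts in TAM depleted tumours 1 to 4, against 10.7, 3.34, 8.90 and 137 in Control tumours 1 to 4. Control 4 again lay among the depleted tumours, above TAM depleted 3. Its log2 fold change of 4.16 (SE 1.30, 95% interval 1.41 to 6.91) did not pass (limma-trend adjusted p = 0.0867).

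Pvalb (chr15:78191114-78206400) had 55.2, 265, 79.8 and 99.98 normalized counts in TAM depleted tumours 1 to 4, against 32.2, 2.23, 32.9 and 39.7 in Control tumours 1 to 4. All depleted libraries lay above all control libraries, but the gap between TAM depleted 1 and Control 4 was small. Its log2 fold change of 2.42 (SE 0.73, 95% interval 0.89 to 3.96) did not pass (limma-trend adjusted p = 0.0725). Slc17a7, Cck and Pvalb were thus the 3 of 10 genes whose depleted and control libraries did not overlap with depletion higher, a pattern seen in 3.86% of all genes tested.

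Vip (chr10:5639218-5647617) had 22.2, 133, 21.6 and 102 normalized counts in TAM depleted tumours 1 to 4, against 60.8, 0.556, 32.1 and 2.83 in Control tumours 1 to 4. The groups overlapped widely, and the log2 fold change of 2.30 (SE 1.01, 95% interval 0.16 to 4.44) did not pass (limma-trend adjusted p = 0.237).

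**Figure D1:**
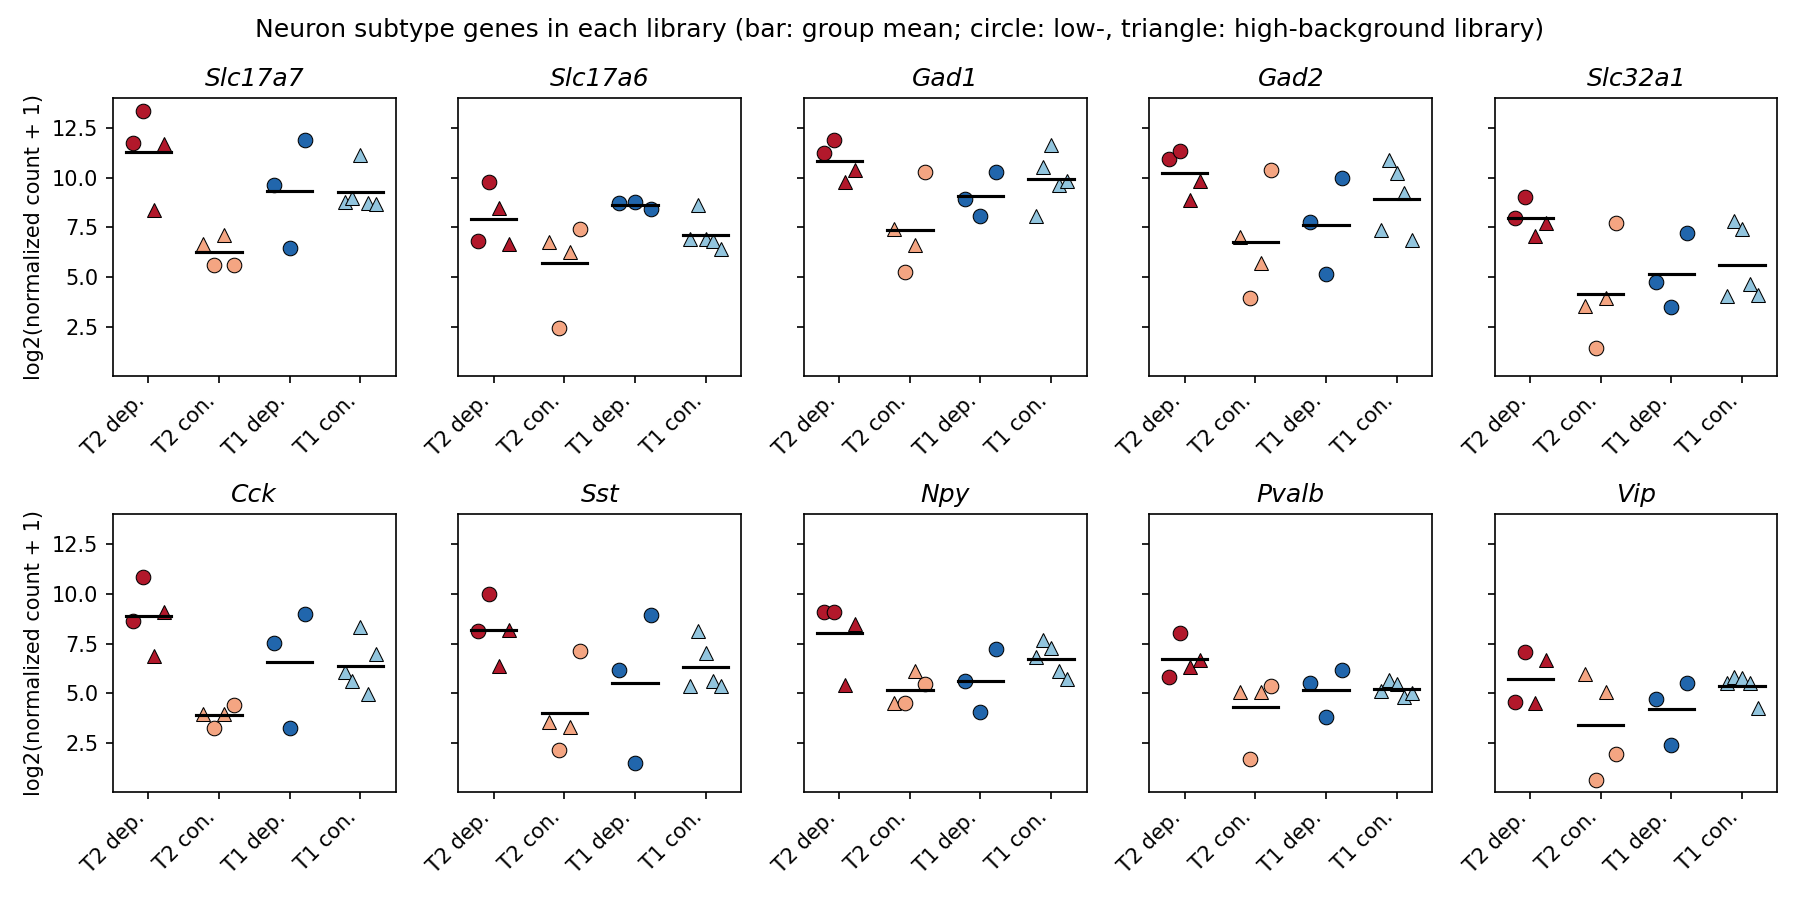
Level of each gene, as log2(normalized count + 1), in every library of the 4 groups, with circles for low-background and triangles for high-background libraries and bars for group means. Slc17a7 lay between 8.38 and 13.4 in Type 2 TAM depleted libraries and between 5.60 and 7.11 in Type 2 Control libraries, while in Type 1 the groups overlapped for every gene.

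The Type 2 result depended on single libraries and on the background set. Without TAM depleted 2, the highest library of its group for each of the 10 genes, or without Control 3, 0 of the 10 genes passed (8 and 10 had an unadjusted p under 0.05), while 6 passed without Control 4. Over all genes, 100 to 1258 passed with 1 library left out. A block for the background set let 7 pass, adding Slc32a1, Sst and Pvalb. Of all genes, 2635 passed with that block and 580 in high-background libraries only, against 956 in the main fit. In a fit of the Type 2 table alone, 0 of the 10 genes passed (8 at an unadjusted p under 0.05), nor did any other gene (3194 at an unadjusted p under 0.05). A fit of the 9 high-background libraries, including those of Type 1 Control, passed Cck and Sst in the Type 2 comparison. A fit of the 7 low-background libraries, including those of Type 1 TAM depleted, passed 0 of the 10 genes (6 at an unadjusted p under 0.05). In that fit 0 of all genes passed (2863 at an unadjusted p under 0.05). The Type 1 libraries entered the estimate of the spread in both fits. Limma-voom on the recovered reads passed Slc17a7 and Gad1, and left Cck at an adjusted p = 0.0704. No count over all genes is given here for limma-voom or for each left-out library by itself. Those calls therefore cannot be set against a share of all genes.

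The mean log2 level of each gene was higher after depletion in both background sets of Type 2, by very different amounts. Depleted and control libraries overlapped for Vip, Npy and Slc17a6 in the high-background set and for Slc17a6 in the low-background set. The log2 fold change of Slc17a7 was 3.15 within the high-background and 6.95 within the low-background Type 2 libraries. For Cck it was 4.06 and 5.93 in the same order, and for Gad1 3.05 and 3.82. The sets differed least for Slc32a1, at 3.66 and 3.95, and most for Vip, at 0.09 and 4.51. Vip had 21.6 and 102 normalized counts in high-background TAM depleted 3 and 4, against 60.8 and 32.1 in Control 1 and 3. In low-background Control 2 and 4 it had only 1 and 5 reads. The others also had the smaller value within the high-background set, among them Npy (1.66 and 4.13), Pvalb (1.43 and 3.42) and Slc17a6 (1.07 and 3.37), and so did Gad2 (3.01 and 3.96) and Sst (3.84 and 4.48). The part of background in these differences was not tested.

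In Type 1 tumours, depletion was followed by no change of these genes that passed the test. Of 26463 genes tested, 0 (0%) passed by limma-trend and 0 by limma-voom, although 8019 (30.3%) had an unadjusted p under 0.05 by limma-trend and 7556 by limma-voom. None of the 10 genes had an unadjusted p under 0.05 by either tool, and depleted and control libraries overlapped for all of them, whereas 10.5% of all genes tested lay apart as higher and 28.6% as lower. The median log2 fold change was -0.61 over the 10 genes and -0.06 over all genes tested.

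Slc17a7 had 805, 87.1 and 3768 normalized counts in Type 1 TAM depleted tumours 1 to 3, against 438, 502, 2303, 425 and 411 in Type 1 Control tumours 1 to 5. The depleted tumours spanned the whole range of the controls and went beyond it at both ends. Its log2 fold change was 0.06 (SE 1.06, 95% interval -2.18 to 2.31, limma-trend adjusted p = 0.968). An interval of this width does not show that the level was unaltered.

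Slc17a6 had the highest fold change of the 10, which did not pass, with 420.1, 437 and 341 normalized counts in TAM depleted tumours 1 to 3, against 121, 390.4, 119, 112 and 83.0 in Control tumours 1 to 5. The depleted tumours were close to each other and above every control but Control 2. Slc17a6 had a log2 fold change of 1.51 (SE 0.91, 95% interval -0.41 to 3.42, limma-trend adjusted p = 0.253). In a fit of the Type 1 table alone, where background and depletion coincide and 16381 of 29708 genes passed, Slc17a6 was the single gene of the 10 to pass, at 1.84 on the log2 scale (limma-trend adjusted p = 0.00433).

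The GABA genes had lower means after depletion without passing. Gad1 had 484, 272 and 1255 normalized counts in TAM depleted tumours 1 to 3, against 267, 1513, 3168, 788 and 902 in Control tumours 1 to 5. Gad2 had 214, 34.5 and 1028 normalized counts after depletion, against 163, 1876, 1192, 597 and 114 in controls. In both genes TAM depleted 3 lay within the range of the controls, and TAM depleted 2 was the lowest depleted tumour. Log2 fold changes were -0.84 for Gad1 (95% interval -2.79 to 1.11), -1.27 for Gad2 (95% interval -3.96 to 1.42) and -0.45 for Slc32a1 (95% interval -2.99 to 2.09).

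The peptides and Pvalb followed the same library order within the depleted group. Cck had 185, 8.47 and 500.1 normalized counts in Type 1 TAM depleted tumours 1 to 3, and Sst had 70.2, 1.82 and 494. Npy had 47.7, 15.7 and 149, Pvalb 44.4, 12.7 and 72.2, and Vip 24.7, 4.24 and 44.7 normalized counts in those tumours. TAM depleted 2 was lowest and TAM depleted 3 highest for each, an order that also held for Slc17a7, Gad1, Gad2 and Slc32a1, whereas TAM depleted 2 was the highest for Slc17a6. In Type 1 Control tumours Cck ranged from 30.2 to 321, Sst from 39.7 to 277, Npy from 52.3 to 204, Pvalb from 27.1 to 50.2 and Vip from 18.0 to 56.0 normalized counts. Log2 fold changes ran from -1.19 for Vip and -1.10 for Npy to 0.20 for Cck, with limma-trend adjusted p from 0.337 to 0.968. For Slc17a7, Cck, Pvalb, Vip and Slc32a1 the sign of the Type 1 fold change turned under other scalings or a background term.

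**Figure D2:**
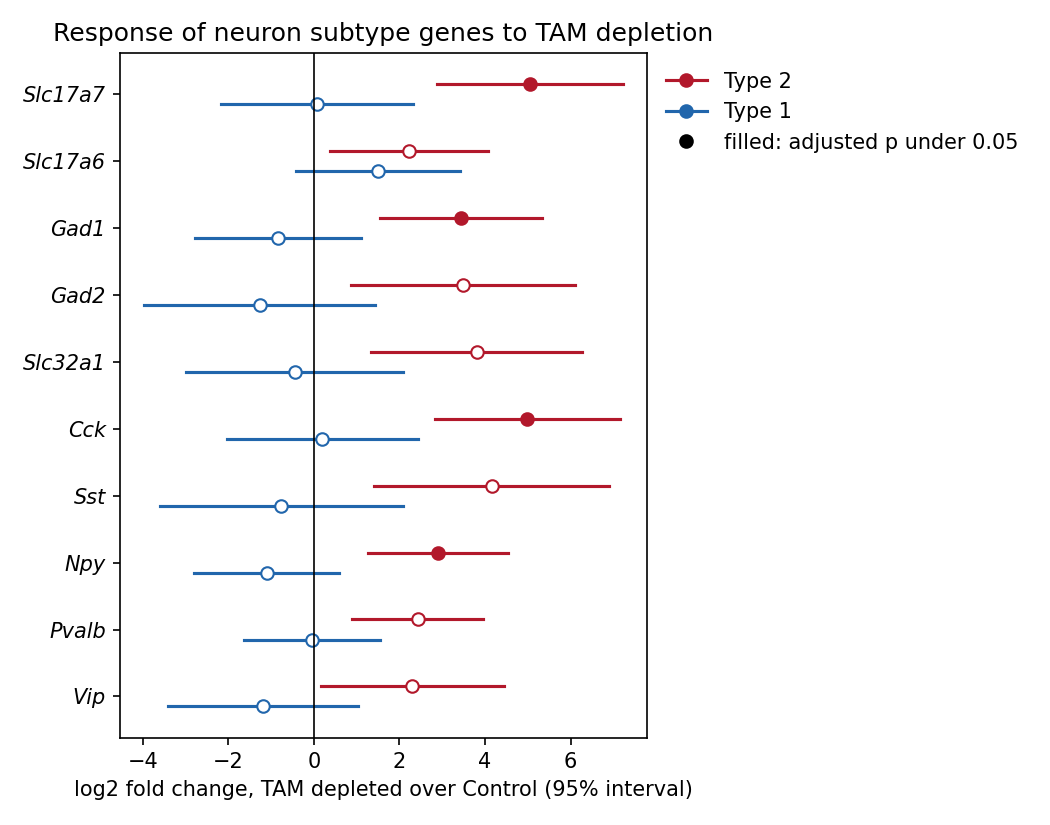
Log2 fold change of TAM depleted over Control with its 95% interval for each gene, Type 2 above Type 1 in each row, with filled points where the adjusted p was under 0.05. In Type 2 all 10 intervals lie above 0 and 4 points are filled, and in Type 1 all 10 intervals span 0.

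The response to depletion itself was then compared between the tumour kinds. The difference, Type 2 minus Type 1, was positive for all 10 genes, from 0.71 for Slc17a6 (SE 1.26, limma-trend adjusted p = 0.807) to 4.99 for Slc17a7 (SE 1.48, limma-trend adjusted p = 0.455). It did not pass for any gene of the 26463 tested (0%) by limma-trend or by limma-voom. At an unadjusted p under 0.05 there were 2666 genes (10.1%) by limma-trend and 3171 by limma-voom, and 9 of the 10 genes by both, all but Slc17a6. Npy had the smallest p of the 10, with a difference of 4.00 (SE 1.12, 95% interval 1.64 to 6.36, limma-trend adjusted p = 0.433). The Type 2 and Type 1 responses of these genes were therefore not shown to differ over all genes.

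Between the controls, the 10 genes were lower in Type 2 Control than in Type 1 Control tumours, and none passed. Of 26463 genes tested, 819 (3.09%) passed by limma-trend, 0.816% as lower. Unadjusted p were under 0.05 for 4 of the 10, Slc17a7, Gad1, Cck and Npy, and for 13.7% of all genes tested, and limma-voom also passed 0 of the 10 genes, with 3 at an unadjusted p under 0.05. Slc17a7, with normalized counts of 47.6 to 137 in Type 2 Control and 411 to 2303 in Type 1 Control tumours, stood at -3.02 on the log2 scale (SE 0.98, limma-trend adjusted p = 0.121). Cck had 8.35 to 20.4 normalized counts in Type 2 Control and 30.2 to 321 in Type 1 Control tumours, and stood at -2.51 on that scale (SE 0.97, limma-trend adjusted p = 0.221). These 2 genes did not overlap between the groups, a pattern with Type 2 lower in 1.93% of all genes tested. Gad1 stood at -2.56 (SE 0.85, limma-trend adjusted p = 0.134), and it passed without Type 2 Control 4, at -3.52.

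These controls are the ones that the depletion comparisons use, so the low Type 2 Control levels and the Type 2 response share their samples. After depletion the order was turned for 9 of the 10 genes, with Type 2 TAM depleted above Type 1 TAM depleted tumours in the mean and 0 passing (2 at an unadjusted p under 0.05, Npy and Slc32a1, against 12.1% of all genes tested). Limma-trend passed 49 genes (0.185%) of all tested in that comparison, and limma-voom passed 0 of the 10 genes, with 5 at an unadjusted p under 0.05. Slc32a1 had the largest log2 fold change, 2.80 (SE 1.26, limma-trend adjusted p = 0.385), followed by Sst at 2.65 and Gad2 at 2.61. Slc17a6 was the exception, at -0.70 (SE 0.95, limma-trend adjusted p = 0.777).

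Levels of different genes can be set side by side only per length, and were divided by the exon length of each gene in kb. In Type 2 TAM depleted tumours the order of the medians was Npy (804 normalized counts per kb), Slc17a7 (621), Sst (397), Cck (362), Gad1 (244.4), Gad2 (243.8), Pvalb (86.4), Slc32a1 (82.9), Slc17a6 (43.2) and Vip (18.2). Ranges of neighbours overlapped throughout this order: Npy ran from 74.3 to 974 and Slc17a7 from 61.6 to 1979 normalized counts per kb. In Type 2 Control tumours Npy (56.7) and Pvalb (31.3) had the highest medians and Vip (5.13) and Slc32a1 (4.46) the lowest, with every neighbouring pair overlapping.

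Type 1 tumours had another order of medians, again with every neighbouring pair overlapping in both groups. In Type 1 TAM depleted tumours Slc17a7 (149 normalized counts per kb), Cck (142), Sst (97.4), Npy (84.3) and Slc17a6 (77.8) led, with Slc32a1 (9.24) and Vip (7.26) last. In Type 1 Control tumours Npy (199), Gad1 (118), Gad2 (102), Slc17a7 (81.2) and Sst (66.9) led, with Vip (13.4) and Slc32a1 (8.62) last. Slc17a6 varied least in proportion in Type 1 TAM depleted tumours, 63.2 to 80.9 normalized counts per kb.

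The balance of the excitatory and inhibitory genes within a library was described by the ratio of Slc17a7 to the mean of Gad1, Gad2 and Slc32a1, all per kb, which does not depend on the scaling of the library. The ratio was 2.56, 5.25, 0.762 and 4.54 in Type 2 TAM depleted tumours 1 to 4, against 1.16, 3.38, 2.90 and 0.0573 in Type 2 Control tumours 1 to 4. In Type 1 it was 4.11, 1.07 and 5.35 in TAM depleted tumours 1 to 3, against 3.57, 0.467, 1.89, 1.11 and 1.60 in Control tumours 1 to 5. Depleted and control tumours overlapped in both kinds. The lowest value by far was that of Type 2 Control 4, which had 84 reads of Slc17a7 beside 2174 of Gad1 and 2343 of Gad2.

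Type 2 Control 4 also had the highest mean log2 level of 10 genes of striatal projection neurons, which use GABA, among Type 2 Control tumours, 7.18 against 4.39 to 5.86 in Control 1 to 3. Type 1 Control 2, with the next lowest ratio of all, had the highest such mean among Type 1 Control tumours, 8.19. High striatal means also occurred with high ratios, as in Type 2 TAM depleted 4, where the mean was 9.04 and the ratio 4.54. The part of the brain region in the tissue was not tested. With the receptor level of each library subtracted first, the ratio of Type 2 Control 3 was 6.74. That of Type 2 Control 1 could not be formed, since neither Slc17a7, at 0.669 times that level, nor any of its GABA genes exceeded it. The unsubtracted ratio of 1.16 in Type 2 Control 1 thus cannot be told from background.

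Slc17a7 and Slc17a6 did not keep a fixed proportion. Their ratio per kb was 30.9, 12.03, 0.932 and 32.6 in Type 2 TAM depleted tumours 1 to 4, against 0.935, 10.8, 1.81 and 0.283 in Type 2 Control tumours 1 to 4. In Type 1 it was 1.92, 0.200 and 11.05 in TAM depleted tumours 1 to 3, against 3.63, 1.29, 19.4, 3.82 and 4.96 in Control tumours 1 to 5. Some of these ratios rest on values near background. In Type 2 TAM depleted 4 Slc17a6 was at 1.35 times the receptor level per kb of its library. Slc17a7 and Slc17a6 were at 0.669 and 0.715 times it in Type 2 Control 1. Where both genes exceeded 3 times that level, the ratio still ran from 0.200 in Type 1 TAM depleted 2 to 30.9 in Type 2 TAM depleted 1. Type 1 TAM depleted 2, the lowest, was the tumour in which Slc17a6 exceeded every other gene of the 10 in normalized counts. By comparison Gad1 and Gad2 stayed nearer to each other, with a ratio per kb of 0.956 to 1.42 in Type 2 TAM depleted and 0.714 to 1.95 in Type 2 Control tumours. It reached 6.07 in Type 1 TAM depleted 2 and 6.10 in Type 1 Control 5.

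**Figure D3:**
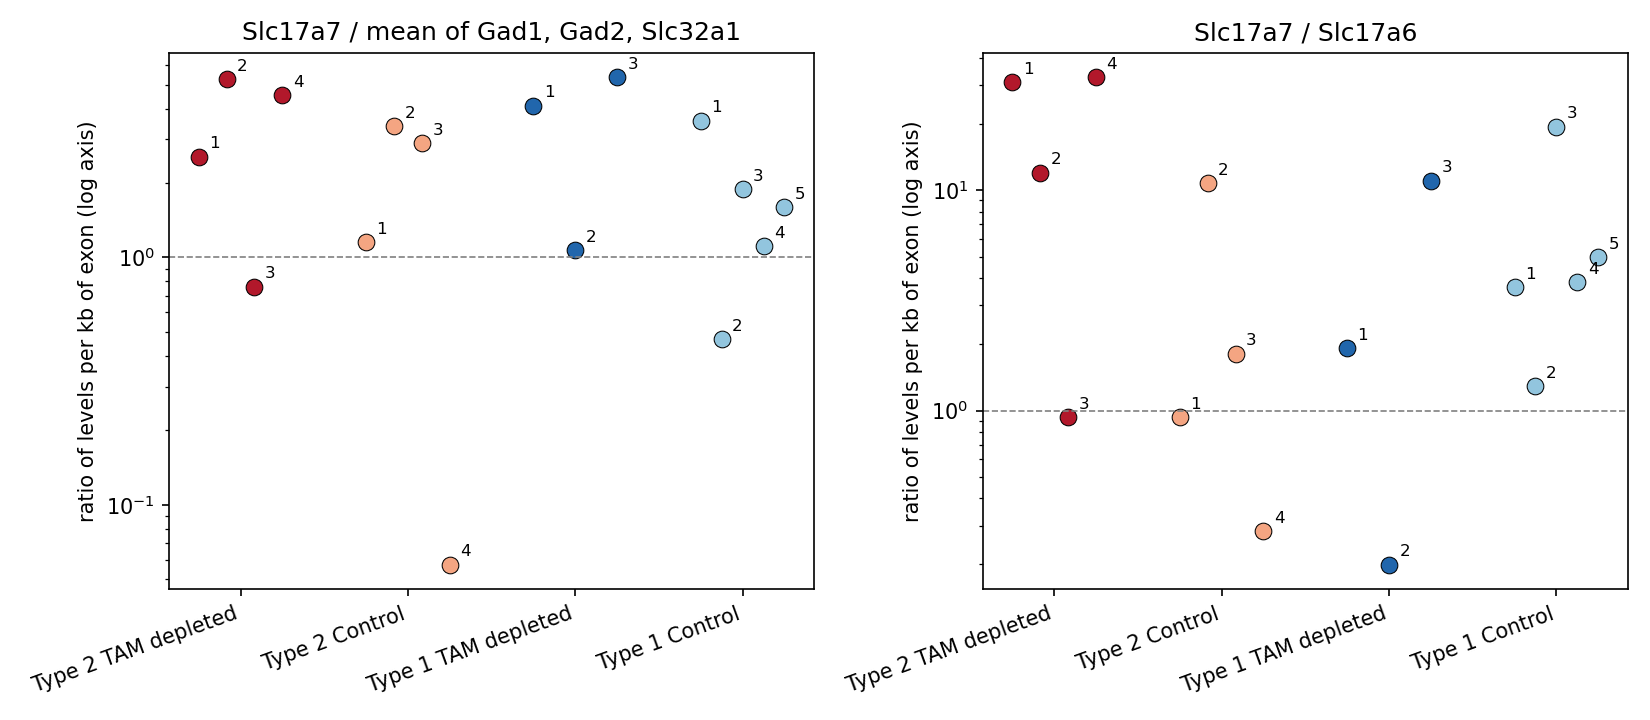
Ratio of Slc17a7 to the mean of Gad1, Gad2 and Slc32a1 (left) and of Slc17a7 to Slc17a6 (right), per kb of exon on log axes, for each library, numbered by replicate, with a dashed line at a ratio of 1. On the left 13 of 16 libraries lie above 1, and Type 2 Control 4 lies lowest at 0.0573.

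How far a low value stands above background differed by gene, and was described by each gene's level per kb as a multiple of the mean receptor gene level per kb in the same library. That receptor level was 0.231 to 1.27 normalized counts per kb in low-background and 5.72 to 27.8 in high-background libraries. Vip was under 3 times the receptor level in 9 of 9 high-background and 3 of 7 low-background libraries, and its values there cannot be told from background. Slc17a6 was under 3 times in 7 of 9 high-background and 1 of 7 low-background libraries, and Slc32a1 in 5 of 9 and 1 of 7. Npy and Slc17a7 were the clearest, each under 3 times in 1 of 9 high-background and in 0 of 7 low-background libraries.

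Type 2 Control 1 was the library under 3 times the receptor level for all 10 genes, with multiples from 0.138 for Slc32a1 to 1.36 for Npy. Its reads were few as well, 28 for Slc17a7, 48 for Gad1 and 4 for Cck. Without it 2 of the 10 genes passed in Type 2, Slc17a7 and Cck. In Type 1 Control tumours, all high-background, Slc32a1 was at 0.729, 0.840 and 0.686 times the receptor level in Control 1, 4 and 5 and at 7.87 and 7.83 times in Control 2 and 3. With the receptor level subtracted from every gene, 0 genes passed in Type 2 (3192 at an unadjusted p under 0.05), the 10 genes included (10 at an unadjusted p under 0.05).

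**Figure D4:**
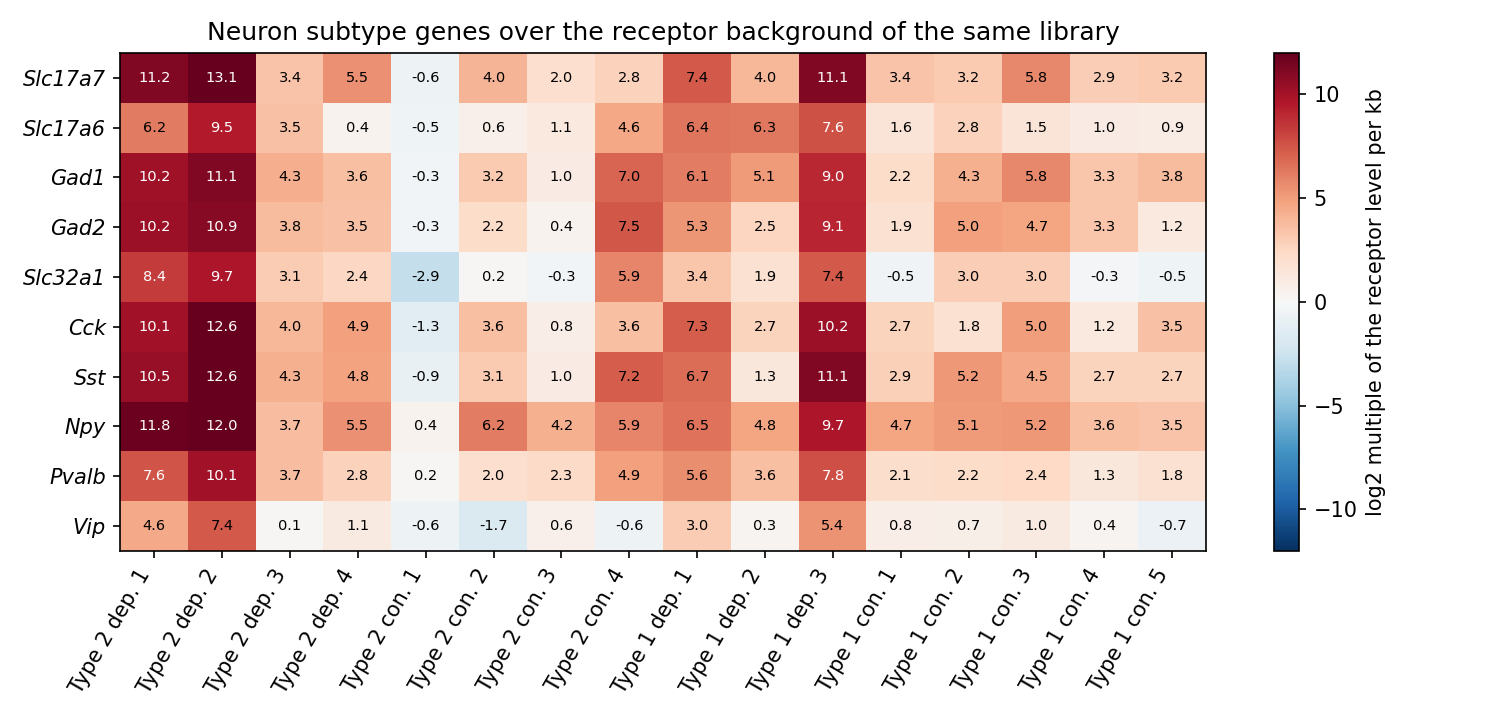
Each gene's level per kb over the mean receptor gene level per kb of the same library, as a log2 multiple written in each cell, with genes in rows and libraries in columns (dep., TAM depleted; con., Control). The column of Type 2 Control 1 is near or below 0 in every row, and the row of Vip is near 0 in all high-background libraries.

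Pan-neuronal genes, which mark neurons of every class, moved with the 10 genes. Of 12 such genes, 7 rose and 0 fell in Type 2 after depletion, with a median log2 fold change of 3.51, near the 3.46 of the 10 genes. They include Snap25, a vesicle fusion protein (log2 fold change 4.58), Celf4 (3.58), the vesicle protein Syp (3.47) and the nuclear protein Rbfox3 (3.30). The mean log2 level of the list was 10.1 to 12.4 in Type 2 TAM depleted and 6.98 to 9.46 in Type 2 Control libraries, with Control 4 the highest control. In Type 1 it was 9.08 to 11.1 in TAM depleted and 9.18 to 10.5 in Control libraries, and 0 of the 12 genes passed (0 at an unadjusted p under 0.05 by limma-trend).

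Relative to that pan-neuronal mean, the Type 2 groups overlapped for Slc17a7, which stood -1.74 to 1.15 log2 units from it in TAM depleted and -3.86 to 0.06 in Control libraries. Gad1 stood -0.45 to 0.66 log2 units from the mean in TAM depleted and -1.74 to 0.81 in Control libraries, and so overlapped too. Whether the 10 genes changed beyond neuronal transcripts in general was not tested.

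Other genes of excitatory neurons also rose. Of 14 glutamatergic genes, 6 rose and 0 fell in Type 2 (median log2 fold change 2.87). Among them were the cortical transcription factors Tbr1 (3.35) and Bcl11b (3.02), the neuronal differentiation factor Neurod2 (3.50) and Nrgn (4.60), a calmodulin-binding protein of forebrain excitatory neurons. Tbr1 had 562 ± 504 normalized counts in TAM depleted and 39.8 ± 14.6 in Control tumours (SD, n = 4 each).

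Of 27 genes of the GABAergic lineage and of interneuron subtypes, 1 rose and 0 fell, where 2.37% of all genes tested passed as higher. By limma-trend, 7 had an unadjusted p under 0.05, against 18% of all genes tested. Fold changes were positive for 19 and negative for 8, with a median of 0.79 on the log2 scale. Gad1 (3.44), Gad2 (3.49) and Slc32a1 (3.81) had larger log2 fold changes, and the difference was not tested. The gene that rose was Cnr1, the cannabinoid receptor that Cck interneurons carry, with 1042 ± 657 normalized counts in TAM depleted and 156 ± 79.9 in Control tumours (SD, n = 4 each; log2 fold change 2.65, SE 0.42, limma-trend adjusted p = 0.00917). The forebrain interneuron factor Dlx1 (1.89, adjusted p = 0.086) and the calcium buffer Calb2 (1.42, adjusted p = 0.28) had log2 fold changes that did not pass by limma-trend. Of 10 striatal projection neuron genes, 1 rose and 0 fell (median 2.02), the phosphodiesterase Pde10a (1.58), while the dopamine receptor Drd1 (2.16) and the enkephalin precursor Penk (3.81) did not pass.

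Peptide neurons also need enzymes and granule proteins that process and store peptide precursors. Of 10 such genes, 7 rose and 0 fell in Type 2, with a median log2 fold change of 2.89. They include the granins Chga (3.34) and Chgb (3.68), the granule protein Scg3 (2.48) and Scg5 (2.95), a chaperone of a prohormone convertase. Chga had 327 ± 258 normalized counts in TAM depleted and 36.0 ± 40.4 in Control tumours (SD, n = 4 each). Among 12 receptors for the 4 peptides, 11 were tested and 1 rose, the somatostatin receptor Sstr2, with 194 ± 40.5 normalized counts in TAM depleted and 36.8 ± 14.4 in Control tumours (SD, n = 4 each; log2 fold change 2.44, SE 0.46, limma-trend adjusted p = 0.0142). The receptors Vipr1 (1.84) and Cckbr (2.33) did not pass.

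Of 9 enzymes and carriers that recycle glutamate and GABA, 1 rose and 0 fell (median 1.46). It was Glul, the glutamine synthetase of astrocytes, with a log2 fold change of 2.13. The GABA-degrading Aldh5a1 (1.46) and the astrocytic glutamate uptake carrier Slc1a2 (3.41) did not pass.

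Markers of other brain cells moved in Type 2 as well. Of 6 astrocyte genes, 1 rose and 0 fell (median log2 fold change 1.73), the water channel Aqp4 (2.04), while Aldh1l1 (1.84) and Slc4a4 (1.82) did not pass. The mean log2 astrocyte level was 9.43 to 10.6 in TAM depleted and 7.82 to 9.08 in Control libraries. Of 6 mature oligodendrocyte genes 0 passed by limma-trend (3 at an unadjusted p under 0.05), with a median of 1.32, led by the myelin genes Mobp (4.18) and Mag (2.61), with Mog at 0.97 and Cnp at 0.20. Of 6 precursor genes 1 fell and 0 rose (median -0.78), with 4 negative and 2 positive fold changes. Sox10 fell (-2.01), and Cspg4 (-1.21), Pdgfra (-0.99) and Gpr17 (-0.58) did not pass.

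Of 10 macrophage and microglia genes 0 rose and 2 fell, the macrophage receptor Adgre1 (-2.10) and the immune receptor chain Fcer1g (-1.69), while Aif1 (-1.42) did not pass. Their mean log2 level was 6.73 to 7.83 in TAM depleted and 7.71 to 8.85 in Control libraries, and Aif1, at 28.3 ± 6.73 normalized counts in TAM depleted and 79.5 ± 26.1 in Control tumours (SD, n = 4 each), was not absent after depletion. Of 6 endothelial genes 0 passed by limma-trend (1 at an unadjusted p under 0.05), with 4 negative and 2 positive fold changes and a median of -0.30. The 3 with the smallest p were Kdr at -0.86, Cdh5 at -0.61 and Pecam1 at -0.48. The part of these cell types in the levels of the 10 genes was not tested. In Type 1 no gene of any of these lists passed by limma-trend. The macrophage and microglia genes had a median log2 fold change of -0.175 there, with 8 negative and 2 positive. Lowest of them was Adgre1 at -1.67 (limma-trend adjusted p = 0.103). Its depleted libraries lay below all controls, as did those of 28.6% of all genes tested. The mean log2 level of the list was 6.52 to 7.25 in Type 1 TAM depleted and 6.89 to 7.58 in Type 1 Control libraries.

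Between the controls some genes of the neuronal lists passed. Of 12 pan-neuronal genes 5 fell and 0 rose in Type 2 Control relative to Type 1 Control tumours (median log2 fold change -1.95), as did 3 of 14 glutamatergic genes (0 rose). Of 27 GABAergic lineage genes 3 fell and 1 rose (median -0.76), and of 10 striatal projection neuron genes 0 passed by limma-trend (0 at an unadjusted p under 0.05; median -0.99). Of 6 oligodendrocyte precursor genes 4 rose (median 3.09), the highest median among the lists.

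The genes with the most similar profile across the 16 libraries were sought for each of the 10 genes among 12853 genes with a mean normalized count of 50 or more. Likeness was the mean absolute difference of log2 levels after centring each gene on its own mean, so that 0 is identity. It is not scaled to the spread of a gene, its mean absolute log2 deviation from its own mean. A gene of small spread therefore lies nearer to others. That spread was 0.865 for Pvalb, 1.17 for Slc17a6, 1.28 for Vip, 1.32 for Npy and 1.48 for Gad1. It was 1.91 for Slc17a7, 1.94 for Gad2, 1.95 for Sst and 2.00 for Cck and Slc32a1. Slc17a7 was nearest to the synaptic vesicle gene Sv2b (0.47) and Hpcal4 (0.56), and Cck to Nrgn (0.42) and Sv2b (0.60). Slc17a6 had no such close match, with Jakmip3 at 0.70 and Cacna2d3 at 0.72 log2 units. Gad1 was nearest to Nrxn3 (0.54), a presynaptic adhesion molecule, and Zdhhc22 (0.55). Gad2 was nearest to Peg3 (0.54) and Xkr4 (0.62), and Slc32a1 to Tmem130 (0.37) and the sodium channel subunit Scn2b (0.53). The match of Slc32a1 was closer than that of Slc17a7, Gad1 or Gad2. Sst was nearest to the glutamate receptor subunit Gria1 (0.41) and Nefl (0.47), Npy to Trnp1 (0.48) and Gsg1l (0.55), Pvalb to Kcnab3 (0.35) and Elapor1 (0.36), and Vip to Cdh18 (0.47) and Cdh9 (0.51). All these profiles share the libraries, their depth and their background.

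Among the 10 genes themselves the closest pairs by the same measure were Gad2 with Slc32a1 (0.53 log2 units), Slc17a7 with Cck (0.54) and Gad1 with Gad2 (0.66). The farthest were Slc17a6 with Cck (1.82) and Slc17a7 with Slc17a6 (1.82). Gad1 lay 0.81 from Slc32a1, farther than Gad2 from Sst (0.75), Slc17a6 from Pvalb (0.77) or Slc32a1 from Sst (0.79). Slc17a6 and Pvalb had the smallest spreads of the 10, 1.17 and 0.865, so their distance cannot be set beside those of the GABA genes. Sst had a spread of 1.95, like those of Gad2 (1.94) and Slc32a1 (2.00), and lay near both. Nearness was thus not particular to the GABA synthesis and loading genes. The glutamate carriers lay far apart.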

How the data were processed

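Tumours were lysed in TRIzol, RNA was purified with the miRNeasy Micro kit and cDNA libraries were prepared with the SMART-Seq v4 kit, per the labels' protocols. The kit does not mark strand. Per the submitters' processing notes, STAR 2.7.8a, DESeq2 (no version named) and the build GRCm38 were used. For the counting tool and the annotation, the entry is "not given in the sources used here". As for the files, the authors deposited 3 tables of variance-stabilized log2 values, of all 16, the 8 Type 1 and the 8 Type 2 libraries. Their transform was inverted from the lowest value of each table; whole reads were recovered in 100% of values (tolerance 0.05 reads), and reads were equal between tables in 100% of shared values. Replicates all differed by more than sampling noise, the closest pair having a chi-square per degree of freedom of 9.07. Reads carry no molecular identifiers.

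Groups and replicate numbers come from the sample titles. The deposited unit is not a count, so limma-trend (limma 3.58.1, R 4.3.3) was run on log2(normalized count + 1) in 1 fit of 4 group means over 16 libraries, on the 26463 genes that reached a normalized count of 10 in 3 or more libraries. P-values were 2-sided and adjusted over all of these genes by Benjamini-Hochberg, and the threshold was 0.05. The steps were tested on simulated data. Coordinates and exon lengths are those of GENCODE vM21 (GRCm38), and promoters those of RefSeq (GRCm38.p6).

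The 10 genes and the gene lists were chosen with earlier results of these data known, and the motifs after the promoter letters were seen. Named were all 10 genes in every comparison and, for each list, up to 4 genes: the 3 with the smallest p in the Type 2 depletion comparison and those past the threshold in any comparison. One gene that the rule names is not reported here. Also named were the 2 genes nearest in profile to each of the 10. The alternatives were other pseudocounts, filters and scalings, limma-voom on the recovered reads, the tables of 1 tumour kind, the background set and the replicate number as blocks, background sets alone, and each library left out. Subtraction of the receptor level, the background sets alone between tumour kinds and the receptor-subtracted ratio were added after the data were seen.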

Additional observations from a re-analysis of the deposited data

Results flagged for a closer look

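In 5 of the 30 sets of values of 1 gene in 1 group of 4 or 5 libraries, 1 library lay far from the others by Dixon's criterion, which chance meets in about 1 of 20 such sets. Slc17a7 had a log2 level of 11.17 in Type 1 Control 3, against 8.69 to 8.98 in the other Type 1 Control libraries. Slc17a6 had 8.61 in Type 1 Control 2, against 6.39 to 6.93 in the others of that group. Npy had 5.43 in Type 2 TAM depleted 3, against 8.50 to 9.11 in the others. Pvalb had 1.69 in Type 2 Control 2, on 4 reads, against 5.05 to 5.35 in the others. Vip had 4.25 in Type 1 Control 5, on 10 reads, against 5.53 to 5.83 in the others, all near the receptor level.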

How the results depend on the processing

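The Type 2 depletion fold changes of the 10 genes kept their sign under every alternative run. The count of genes past the threshold was 956, and 2635 with the background block, 580 in high-background libraries only, 297 with the replicate block, and 0 in low-background libraries only, after receptor subtraction and when the Type 2 table was fitted alone (3194 at an unadjusted p under 0.05). It ran from 100 to 1258 with 1 library left out. Of the 10 genes 4 passed, 7 with the background block, 2 in high-background libraries only and by limma-voom, and 0 with the replicate block (9 at an unadjusted p under 0.05), in low-background libraries only, after receptor subtraction and when the Type 2 table was fitted alone (8 at an unadjusted p under 0.05). With 1 library left out it was 0 to 6: 1 (Cck) without Type 2 TAM depleted 1, and 2 (Slc17a7 and Cck) without Type 2 Control 1 or 2, Type 1 TAM depleted 1 or Type 1 Control 2, 4 or 5. Upper quartile scaling moved the median of all genes to -0.47, with 623 higher and 678 lower, against 627 and 329; quantile normalization gave 711 and 502. In Type 1, 16381 genes (6699 higher, 9682 lower) and 1 of the 10 passed in the Type 1 table alone, and 0 to 2 genes with 1 library left out. The difference of responses passed 166 genes with the background block and 1 with the replicate block. Between the controls 819 genes passed, 2343 by limma-voom (902 higher, 1441 lower), 1804 after quantile normalization (1079 and 725), 328 after receptor subtraction, 347 with the replicate block and 510 to 1141 with 1 library left out; upper quartile scaling gave 586 and 473, against 603 and 216. Of the 10 genes 2 passed in high-background libraries only (Gad1 at -2.92 and Sst at -2.87) and after quantile normalization (Slc17a7 at -3.25 and Gad1 at -2.74), and 0 to 1 with 1 library left out. Between depleted tumours 49 genes passed, 215 with the background block, 20 in low-background libraries only, 31 after quantile normalization, 14 after receptor subtraction, 16 with the replicate block and 12 to 234 with 1 library left out. The cause of these shifts was not tested.

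Signs turned in Type 1 depletion. Slc17a7 was -0.56 with the background block, -0.40 after quantile normalization, -0.39 after upper quartile scaling and -0.19 with the replicate block, and -1.21 to 1.498 with 1 library left out. Cck was -0.63 with the background block, -0.25 after upper quartile scaling and -0.995 to 1.87 with 1 library left out. Pvalb was 0.51 with the background block, 0.011 with a pseudocount of 8, 0.82 after quantile normalization, 0.34 after receptor subtraction, 0.28 in the Type 1 table alone and -0.56 to 0.65 with 1 library left out. Vip was 0.81 with the background block and 0.18 after receptor subtraction. Slc32a1 was 0.36 after quantile normalization, 2.00 after receptor subtraction and -1.49 to 0.38 with 1 library left out, and Sst -2.47 to 1.26. Between the controls Vip was 0.11 in high-background libraries only. In Type 2 depletion Gpr17 was 0.52 in high-background libraries only and -0.91 to 0.18 with 1 library left out, and Cnp -0.29 in low-background libraries only, -0.28 after quantile normalization, -0.088 after upper quartile scaling and -0.13 to 0.55 with 1 library left out. The difference for Slc17a6 was -0.38 to 1.28 with 1 library left out.

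Groups share replicate numbers, which did not pair the samples: the correlation of same-numbered deviations in Type 2 was -0.68, 0.50, 0.30 and -0.60, and in Type 1 -0.05, -0.16 and 0.37, so the replicate block values above carry no pairing.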
